A study of Mus musculus with 12 samples.

Results

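Claudins are the membrane proteins that close the space between neighbouring cells at tight junctions, and 9 claudin genes were followed here across mouse lung and mammary epithelial cells: Cldn1, Cldn2, Cldn3, Cldn4, Cldn5, Cldn7, Cldn8, Cldn10 and Cldn18. They were taken as the array probes whose transcript accession belongs to these genes, which gave 10 of 41174 probes and 9 of the 17178 genes with a symbol on the array. Cldn1 has 2 of these probes and each of the others has 1. All 9 genes were well above background on every array of at least 1 group and were tested.

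The study hybridised 12 samples to Agilent mouse arrays with 1 dye each, and each of its 4 groups has 3. Adult lung and adult mammary cells are the epithelial preparations of female mice aged 10 weeks, freed with trypsin and collagenase A over 45 and 30 minutes and collected by 7 and 5 rounds of low-speed centrifugation. No cell sort is stated. Reprogrammed lung and reprogrammed mammary cells carry only those names in the labels, and whether the organ word names where the cells started or what they became is not said. The labels also do not give a strain, age or marker for any of the 4 groups beyond the donors' age. The protocol that all 12 samples share also describes embryonic lung epithelium and the mixing of cells with Matrigel for transplantation. Nothing says that the arrays of a group came from separate animals, so a p-value here measures only the spread between arrays.

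A claudin crosses the membrane 4 times in every family member, and its outer loops bind the loops of claudins on the next cell. Some claudins seal, such as Cldn1, Cldn3, Cldn4 and Cldn5, and others form pores that let small ions through, such as Cldn2 and Cldn10. The set a cell makes decides how leaky its layer is. Milk-making glands, airways, alveoli and blood vessels use sets that differ in part and overlap in part. Cldn3, Cldn4 and Cldn7 are typical of glandular epithelium, though not limited to it. Cldn5 is typical of blood vessels and Cldn18 of the alveolar wall.

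Levels are log2 values of the processed signal relative to the 75th percentile of the same array, so 0 marks the 75th percentile, and the levels of different probes are not set against one another. Arrays had 72.1% to 91.2% of probes well above background. Reprogrammed lung replicate 1 and adult mammary replicate 4 stood apart: the distance between the 10th and 90th percentiles of log2 signal was 6.16 and 7.15 there, against 8.50 to 9.20 on the other 10 arrays. On reprogrammed lung replicate 1 the summed level of 4 B-cell markers was 77.1 times the 75th percentile, against 0.97 to 12.9 on the other arrays. Its sum of 13 pan-epithelial markers was 46.3, against 183 and 214 on reprogrammed lung replicates 3 and 4. Its sum of 4 neutrophil markers was 15.1, against 1.72 to 1.81 in adult lung and less in the mammary groups. The sum of 5 T and NK cell markers was 16.5 there, 12.2 on adult mammary replicate 4 and 23.2 on reprogrammed mammary replicate 2. The labelled tissues were set against their markers. The sum of 7 alveolar type II markers was 103 to 141 in adult lung and 3.45 to 8.73 in the other 3 groups, so these markers were low in reprogrammed lung. Sftpc was left out of that sum because its probe lacked a value on at least 1 array. The sum of 4 airway secretory markers was 291 to 442 in adult lung and 1.53, 2.00 and 15.5 on reprogrammed lung replicates 1, 3 and 4. It was 1.18 to 1.58 in adult mammary and 1.11 to 1.85 in reprogrammed mammary. The sum of 8 mammary luminal markers was 203 to 247 in adult mammary, 231 to 259 in reprogrammed mammary, 34.1 to 189 in reprogrammed lung and 15.3 to 20.6 in adult lung.

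The claudins fell into a lung-high pair and a larger set that was low in adult lung. Cldn5 and Cldn18 were higher in adult lung than in each of the other 3 groups. Cldn1, Cldn3, Cldn4, Cldn8 and Cldn10 were lower in adult lung than in adult mammary. In limma's fit over all features, 7 of the 9 claudins passed an adjusted p of 0.05 between adult lung and adult mammary, 2 higher and 5 lower, where 28.5% of all 24497 features tested passed (12.5% higher, 15.9% lower). Between reprogrammed lung and adult lung 5 passed, 3 higher and 2 lower, where 23.4% of all features passed (14.1% higher, 9.31% lower). Between reprogrammed mammary and adult lung 7 passed, 5 higher and 2 lower, where 26.1% of all features passed (14.9% higher, 11.2% lower). The median claudin difference was -1.80 in adult lung against adult mammary, 1.15 in reprogrammed lung against adult lung and 1.83 in reprogrammed mammary against adult lung, where the median over all features was 0.0023, 0.10 and 0.04. These 3 comparisons share the adult lung arrays, so they are not independent of one another. The 9 claudins were chosen with earlier results of these data known, so their share beside that of all features is a description and no test. Of the 12 other claudins tested, 16.7% passed in each of the 3 comparisons.

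**Figure D1:**
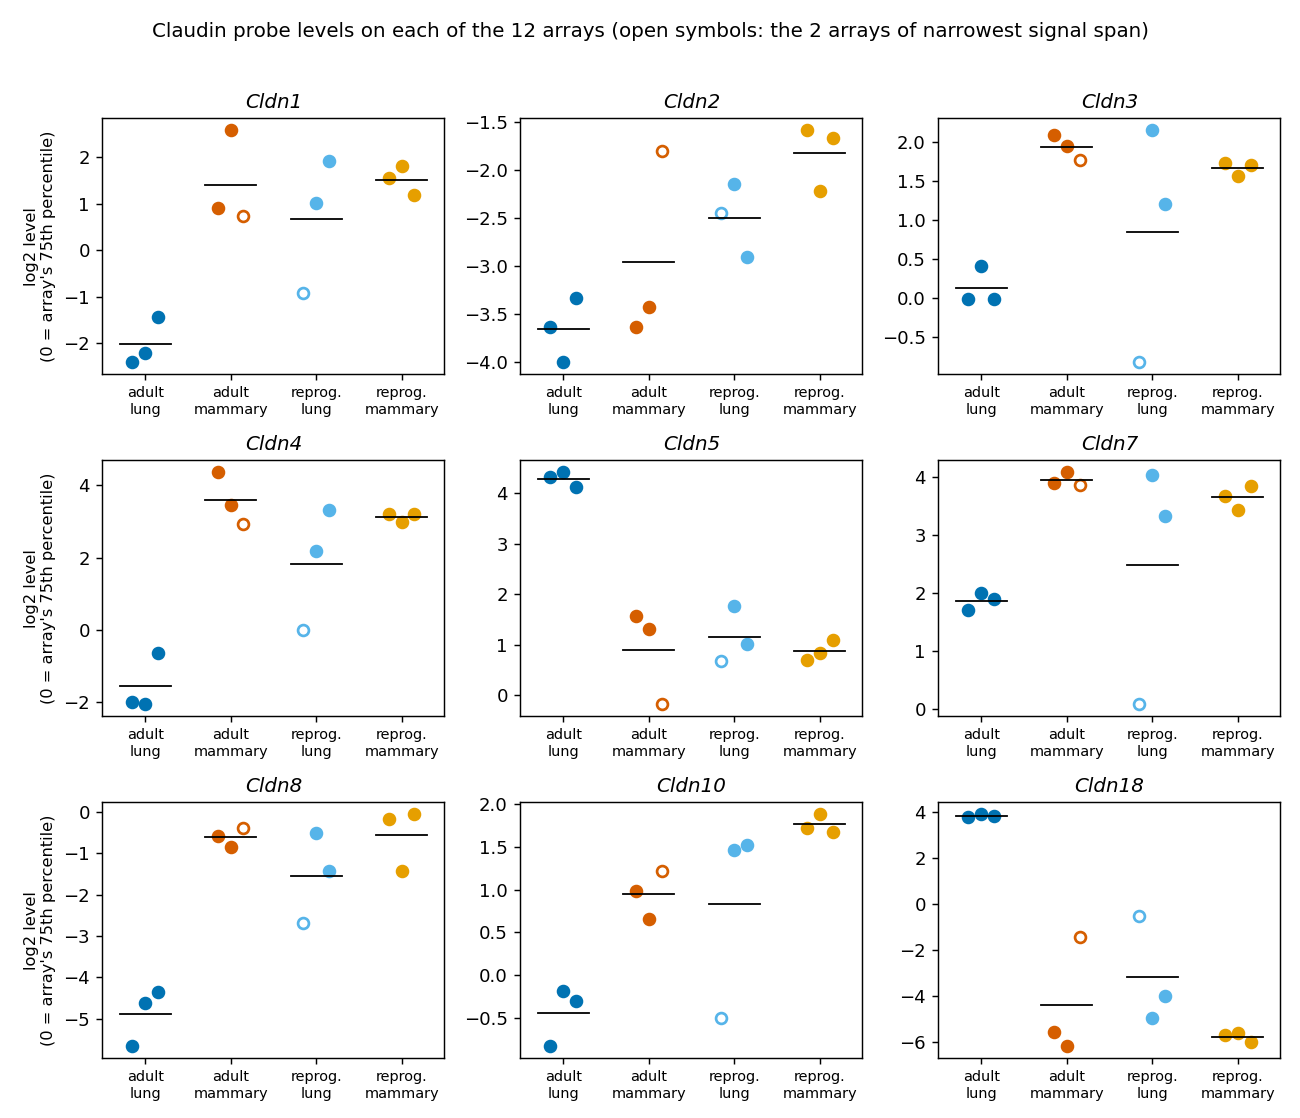
Log2 level of each claudin probe relative to the array's 75th percentile (vertical axis) in the 4 groups, 1 point per array, with a line at the group mean and open symbols for reprogrammed lung replicate 1 and adult mammary replicate 4; Cldn1 is shown by its brighter probe. Cldn5 and Cldn18 are high on the 3 adult lung arrays, and Cldn1, Cldn4 and Cldn8 are lower there than on any other array.

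Cldn4 and Cldn3 are neighbouring genes on mouse chromosome 5 and encode sealing claudins of simple and glandular epithelium. Cldn7 on chromosome 11, with Slc2a4 and Elp5 as neighbours, encodes a claudin that also sits along the lateral membrane of such cells. Their promoters are shown because Cldn3 and Cldn7 ran closely together over the arrays while the neighbour Cldn4 moved further. Each sequence is the 250 bases before a RefSeq transcript start in build GRCm38.p6, on the gene's own strand, and Cldn7 has 2 starts in that table. Capitals mark matches, on either strand, to 7 motifs: Grainyhead-like AACNNGTT, the GC box GGGCGG, the E-box CAGGTG, AP-1 TGANTCA, the Ets core CAGGAA, Nkx2-1 CACTTG and the TATA box TATAAA. No 2 matches overlap in the sequences shown.
Cldn4, chr5:134946935-134947184, minus strand: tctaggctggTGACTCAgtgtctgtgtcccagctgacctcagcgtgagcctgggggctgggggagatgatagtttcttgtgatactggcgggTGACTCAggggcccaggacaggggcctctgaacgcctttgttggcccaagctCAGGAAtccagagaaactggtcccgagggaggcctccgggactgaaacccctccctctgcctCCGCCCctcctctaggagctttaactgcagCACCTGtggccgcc
Cldn3, chr5:134985964-134986213, plus strand: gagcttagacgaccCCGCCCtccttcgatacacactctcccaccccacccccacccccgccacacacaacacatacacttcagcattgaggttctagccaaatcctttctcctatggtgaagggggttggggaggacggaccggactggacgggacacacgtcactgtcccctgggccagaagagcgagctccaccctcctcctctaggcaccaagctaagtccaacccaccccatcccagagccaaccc
Cldn7, chr11:69964529-69964778, plus strand: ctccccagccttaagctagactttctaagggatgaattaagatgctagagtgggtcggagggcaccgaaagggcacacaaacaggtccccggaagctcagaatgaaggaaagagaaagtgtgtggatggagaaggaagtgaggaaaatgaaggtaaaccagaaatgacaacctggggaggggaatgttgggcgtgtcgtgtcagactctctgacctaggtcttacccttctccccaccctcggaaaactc
Cldn7, chr11:69965171-69965420, plus strand: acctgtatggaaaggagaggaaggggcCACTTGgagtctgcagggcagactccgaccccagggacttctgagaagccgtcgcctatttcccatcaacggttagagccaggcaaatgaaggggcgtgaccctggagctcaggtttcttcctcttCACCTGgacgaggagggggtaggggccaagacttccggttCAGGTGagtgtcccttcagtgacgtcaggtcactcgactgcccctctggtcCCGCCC
The Cldn4 window held AP-1 matches 240 and 158 bases before the start, an Ets core, a GC box and an E-box 14 bases before it. The Cldn3 window held a single GC box, 236 bases before the start. The second Cldn7 window held E-box matches 97 and 57 bases before its start, an Nkx2-1 match and a GC box, and the first held no match. Over all 32851 promoter windows of the same length, 6.75% held the AP-1 letters, 17.2% the E-box, 25.7% the Ets core, 32.7% the GC box and 11.6% the Nkx2-1 letters. A match is a description of the letters and no binding was measured here.

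Cldn4 had the widest gap among the sealing claudins. Its level was -1.99, -2.05 and -0.63 in adult lung and 4.36, 3.45 and 2.92 in adult mammary. It was 0.0034, 2.17 and 3.31 in reprogrammed lung and 3.20, 2.99 and 3.20 in reprogrammed mammary. Every adult lung array was below every other array, and reprogrammed lung replicate 1 came next. Adult lung was 35.1-fold lower than adult mammary (log2 difference -5.14 ± 0.73 SE, n = 3 and 3 arrays, adjusted p = 0.000638 in limma). Reprogrammed lung was 10.4-fold higher than adult lung (3.38 ± 0.73, adjusted p = 0.00732 in limma), and reprogrammed mammary 25.7-fold higher (4.68 ± 0.73, adjusted p = 0.00107 in limma). The reprogrammed lung difference ran from 6.24-fold without reprogrammed lung replicate 4 to 19.6-fold without its replicate 1, and did not pass with only the 2 groups in the fit (adjusted p = 0.0537 in limma). With slide as a fixed block the reprogrammed mammary difference was 4.26 (adjusted p = 0.0596 in limma) and did not pass. With normexp background correction the 3 differences were -4.42, 2.73 and 3.97, and all passed. In order of mean level the groups ran adult mammary, reprogrammed mammary, reprogrammed lung and adult lung, and only the last neighbouring pair passed the test.

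Cldn3 was at -0.015, 0.42 and -0.0042 in adult lung and at 2.09, 1.95 and 1.77 in adult mammary. In reprogrammed lung it was at -0.82, 2.15 and 1.20, and in reprogrammed mammary at 1.74, 1.57 and 1.71. Adult lung lay below adult mammary and reprogrammed mammary without overlap, whereas reprogrammed lung replicate 1 was the lowest of all 12 arrays. Cldn3 was 3.49-fold lower in adult lung than in adult mammary (-1.80 ± 0.57, adjusted p = 0.0374 in limma). The difference of reprogrammed lung from adult lung was 0.71 (adjusted p = 0.422 in limma) and that of reprogrammed mammary from adult lung was 1.54 (adjusted p = 0.072 in limma). The call between the adult groups was close to the threshold, and leaving out any 1 of the 9 adult or reprogrammed mammary arrays ended it (adjusted p = 0.0531 to 0.103 in limma). So did slide as a fixed block, the replicate block and no filter (adjusted p = 0.264, 0.0756 and 0.0591 in limma). Without reprogrammed lung replicate 1 both differences from adult lung passed, at 1.54 with adjusted p = 0.00246 and at 1.54 with adjusted p = 0.00101 in limma.

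Cldn7 was at 1.71, 2.00 and 1.90 in adult lung and at 3.89, 4.08 and 3.86 in adult mammary. It was at 0.088, 4.03 and 3.33 in reprogrammed lung and at 3.67, 3.43 and 3.84 in reprogrammed mammary. All adult lung arrays lay below all mammary arrays of both kinds, and again reprogrammed lung replicate 1 was the lowest of the 12. The difference of adult lung from adult mammary was -2.08 ± 0.77 (adjusted p = 0.0684 in limma) and did not pass. The SD within reprogrammed lung was 2.10, against 0.12 to 0.21 in the other groups, and all groups share 1 estimate of the spread. Without reprogrammed lung replicate 1 the adult difference was -2.08 with adjusted p = 7.76e-05 in limma. Reprogrammed lung minus adult lung was then 1.81 (adjusted p = 0.000426 in limma), against 0.61 (adjusted p = 0.629) with all arrays. The Pearson correlation of Cldn3 and Cldn7 was 0.98 over the 12 arrays and 0.99 over the 9 arrays that are not adult lung, as a description of arrays that share groups and outlying libraries.

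Cldn1, a sealing claudin that mice need for the skin barrier, lies beside Cldn16 on chromosome 16. Its brighter probe was at -2.41, -2.22 and -1.45 in adult lung and at 0.90, 2.58 and 0.74 in adult mammary. It was at -0.93, 1.03 and 1.93 in reprogrammed lung and at 1.54, 1.82 and 1.19 in reprogrammed mammary. Adult lung did not overlap any other group. It was 10.8-fold lower than adult mammary (-3.43 ± 0.69, adjusted p = 0.00427 in limma). Reprogrammed lung was 6.49-fold (2.70 ± 0.69, adjusted p = 0.0166 in limma) and reprogrammed mammary 11.6-fold (3.54 ± 0.69, adjusted p = 0.00364 in limma) above adult lung. The reprogrammed lung difference did not pass without adult lung replicate 1, adult lung replicate 2 or reprogrammed lung replicate 3 (adjusted p = 0.0628, 0.0566 and 0.0528 in limma). It ran from 4.21-fold without reprogrammed lung replicate 4 to 11.3-fold without its replicate 1. It also did not pass with normexp correction, at 1.84 (adjusted p = 0.0505 in limma), or with only the 2 groups in the fit (adjusted p = 0.0623 in limma). With normexp the other 2 differences were -2.42 and 2.43. On the processed signal the adult difference was -2.84 without adult mammary replicate 2. The other Cldn1 probe was not well above background on any adult lung array and was above it on the 9 others. Its level was at least 6.35-fold higher in adult mammary, 4.35-fold in reprogrammed lung and 6.15-fold in reprogrammed mammary, so both probes gave the same direction.

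Cldn8 partners with Cldn4 in the mouse kidney collecting duct and is also made in mammary epithelium. It was at -5.67, -4.62 and -4.37 in adult lung, where it was well above background on 2 of 3 arrays. It was at -0.59, -0.85 and -0.39 in adult mammary, -2.69, -0.50 and -1.43 in reprogrammed lung and -0.17, -1.42 and -0.05 in reprogrammed mammary. Adult lung was lowest on every array, and the other 3 groups overlapped one another. With the dim array set to its detection floor, the level was at least 15.1-fold lower in adult lung than in adult mammary (adjusted p = 0.000413 in limma). It was at least 7.91-fold higher in reprogrammed lung than in adult lung (adjusted p = 0.00193 in limma) and at least 15.8-fold higher in reprogrammed mammary (adjusted p = 0.000368 in limma). Such a floor is, on each array, the lowest level among probes well above background, or the probe's own level where that is higher. A p-value beside such a bound is that of the fitted difference without the floor. For Cldn8 the fitted differences were -4.28, 3.35 and 4.34 in the same order, each ± 0.56. These bounds hold for the processed signal alone. With another background correction, normexp on the median signal, adult lung was 2.94-fold below adult mammary (adjusted p = 0.0232 in limma) and 2.98-fold below reprogrammed mammary (adjusted p = 0.0223 in limma). The fitted difference of reprogrammed lung from adult lung went from 3.35 to 0.92 (adjusted p = 0.197 in limma) and no longer passed. In the authors' values the difference of adult lung from adult mammary was -2.79, that of reprogrammed mammary from adult lung 2.76 and that of reprogrammed lung 1.80, and all passed. With slide as a fixed block the first 2 were -3.53 and 3.66.

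Cldn2 and Cldn10 encode pore-forming claudins: Cldn2 passes cations and water, and the isoforms of Cldn10 pass cations or anions. Cldn2, on the X chromosome, was at -3.63, -4.00 and -3.33 in adult lung and at -3.64, -3.43 and -1.80 in adult mammary. It was at -2.45, -2.15 and -2.91 in reprogrammed lung and at -1.59, -2.23 and -1.67 in reprogrammed mammary. All 6 reprogrammed arrays were above the 3 adult lung arrays, and among adult mammary arrays only replicate 4 reached the reprogrammed levels. Reprogrammed mammary was 3.55-fold higher than adult lung (1.83 ± 0.44, adjusted p = 0.0115 in limma). Reprogrammed mammary minus adult mammary was 1.13 ± 0.44 (adjusted p = 0.431 in limma) and reprogrammed lung minus adult lung 1.15 ± 0.44 (adjusted p = 0.0871 in limma), neither of which passed. With normexp correction the difference of reprogrammed mammary from adult lung was 0.39 (adjusted p = 0.373 in limma) and no longer passed. With slide as a fixed block it was 1.56 (adjusted p = 0.0994 in limma) and did not pass either, and in the authors' values it was 1.17 and passed. The adult lung and adult mammary arrays overlapped for Cldn2.

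Cldn10 was at -0.83, -0.19 and -0.30 in adult lung and at 0.99, 0.65 and 1.22 in adult mammary. It was at -0.50, 1.47 and 1.52 in reprogrammed lung and at 1.73, 1.88 and 1.68 in reprogrammed mammary. The 3 reprogrammed mammary arrays were above all 9 others, and reprogrammed lung replicate 1 lay among the adult lung arrays. Cldn10 was 2.62-fold lower in adult lung than in adult mammary (-1.39 ± 0.46, adjusted p = 0.0458 in limma), and leaving out any 1 of the 9 adult or reprogrammed mammary arrays ended that call (adjusted p = 0.0631 to 0.147 in limma). Quantile normalization, slide as a fixed block, the replicate block and no filter ended it too (adjusted p = 0.0535, 0.29, 0.0884 and 0.072 in limma). It was 4.59-fold higher in reprogrammed mammary than in adult lung (2.20 ± 0.46, adjusted p = 0.00568 in limma), and with slide as a fixed block the difference was 1.74 (adjusted p = 0.117 in limma) and did not pass. Reprogrammed lung minus adult lung was 1.27 (adjusted p = 0.0743 in limma) and was 1.93 (adjusted p = 0.000327 in limma) without reprogrammed lung replicate 1. The array cannot tell the 2 annotated starts of Cldn10 apart, since 1 probe stands for the gene.

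Cldn5 seals the junctions of blood vessel endothelium and in mice limits the passage of small molecules into the brain. The promoter on chromosome 16 is shown because Cldn5 ran against the epithelial set. It held a GC box 45 bases and a Grainyhead-like match 20 bases before the start, letters that 32.7% and 3.64% of all promoter windows held.
Cldn5, chr16:18776597-18776846, plus strand: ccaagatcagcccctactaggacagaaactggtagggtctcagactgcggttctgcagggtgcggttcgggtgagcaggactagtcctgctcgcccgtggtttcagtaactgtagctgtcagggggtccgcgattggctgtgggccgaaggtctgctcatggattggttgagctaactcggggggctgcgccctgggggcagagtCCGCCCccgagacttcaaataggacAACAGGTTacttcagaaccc
Cldn5 was at 4.33, 4.41 and 4.11 in adult lung and at 1.56, 1.31 and -0.18 in adult mammary. It was at 0.67, 1.75 and 1.01 in reprogrammed lung and at 0.69, 0.84 and 1.09 in reprogrammed mammary. Adult lung lay far above all 9 other arrays, and those overlapped. Cldn5 was higher in adult lung than in adult mammary by a log2 difference of 3.39 ± 0.42 (adjusted p = 0.000313 in limma). It was 8.82-fold lower in reprogrammed lung (-3.14 ± 0.42, adjusted p = 0.000549 in limma) and 10.6-fold lower in reprogrammed mammary (-3.41 ± 0.42, adjusted p = 0.000291 in limma) than in adult lung.

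The endothelial marker list moved with Cldn5. Its 10 genes, all above background on all arrays, summed to 159 to 182 times the 75th percentile in adult lung, 23.1 to 49.6 in adult mammary, 48.3 to 60.2 in reprogrammed lung and 33.1 to 37.7 in reprogrammed mammary. Of these 10, 9 were higher in adult lung than in adult mammary, with a median difference of 2.50, and 9 were lower in reprogrammed lung than in adult lung, with a median of -2.06. The shares over all features were 12.5% higher and 9.31% lower in these comparisons. Cdh5, the cadherin of endothelial junctions, was 6.67-fold higher in adult lung than in adult mammary (adjusted p = 0.000402 in limma). In bulk RNA, fewer cells of a type and less RNA per cell cannot be told apart, and the part of endothelial cells in the Cldn5 result was not tested.

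Cldn18 encodes a claudin of the alveolar wall and, from another start, of the stomach lining. Both annotated starts on chromosome 9 are shown because this gene had the widest range among the claudins, and the array probe does not say which of them was used.
Cldn18, chr9:99717268-99717517, minus strand: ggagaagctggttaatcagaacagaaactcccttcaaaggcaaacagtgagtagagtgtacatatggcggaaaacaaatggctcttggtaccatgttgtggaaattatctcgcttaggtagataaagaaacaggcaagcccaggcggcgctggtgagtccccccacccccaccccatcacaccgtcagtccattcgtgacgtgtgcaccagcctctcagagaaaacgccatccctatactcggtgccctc
Cldn18, chr9:99710064-99710313, minus strand: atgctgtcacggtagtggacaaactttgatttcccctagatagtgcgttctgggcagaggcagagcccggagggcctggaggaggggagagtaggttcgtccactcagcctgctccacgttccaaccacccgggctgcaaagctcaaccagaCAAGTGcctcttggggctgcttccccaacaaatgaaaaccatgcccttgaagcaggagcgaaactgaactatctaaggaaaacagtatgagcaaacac
The second window held an Nkx2-1 match 98 bases before its start and the first held none of the 7 motifs. The Nkx2-1 letters stood in 5 of the 11 claudin windows, beside 11.6% of all promoter windows. Those of Cldn1, Cldn7 and Cldn10 were among them, so the match was not particular to Cldn18.

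Cldn18 was at 3.76, 3.91 and 3.84 in adult lung. It was at -5.57, -6.17 and -1.45 in adult mammary, well above background on 1 of 3 arrays, and at -0.54, -4.95 and -3.99 in reprogrammed lung, above background on 2 of 3. In reprogrammed mammary it was at -5.68, -5.60 and -5.98 and above background on none. The highest values outside adult lung, -0.54 and -1.45, came from the same 2 arrays whose signal span was narrow. The level was at least 204-fold higher in adult lung than in adult mammary (adjusted p = 0.000936 in limma). Relative to adult lung it was at least 124-fold lower in reprogrammed lung (adjusted p = 0.00274 in limma) and at least 481-fold lower in reprogrammed mammary (adjusted p = 0.000389 in limma). The fitted differences behind these bounds were 8.23, -7.00 and -9.59, each ± 1.25. The bounds hold for the processed signal alone: with normexp correction the fitted differences were 5.81, -5.28 and -6.26, and in the authors' values 6.54, -6.01 and -7.31, and all 6 passed. Without adult mammary replicate 4 the adult difference was 9.70, and without its replicates 1 or 2 it was 7.64 or 7.34. Without reprogrammed lung replicate 3 the difference of reprogrammed lung was -6.10. Without reprogrammed lung replicate 1, the difference of reprogrammed lung from adult lung was -8.31 (adjusted p = 0.000659 in limma).

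The sums of alveolar markers were, like Cldn18, higher in adult lung than in the other 3 groups. The sum of 6 alveolar type I markers was 127 to 140 in adult lung, 19.2 to 38.4 in adult mammary, 16.2 to 46.0 in reprogrammed lung and 33.2 to 41.7 in reprogrammed mammary. Within reprogrammed lung and adult mammary the sum did not follow Cldn18. Reprogrammed lung replicate 1 had the highest Cldn18 of its group, -0.54, and the lowest sum, 16.2. Adult mammary replicate 4 likewise had the highest Cldn18, -1.45, and the lowest sum, 19.2. Of these 6 genes, 5 were higher in adult lung than in adult mammary and 5 lower in reprogrammed lung than in adult lung, with Ager, a receptor typical of type I cells, 157-fold higher and 156-fold lower (adjusted p = 8.66e-07 and 8.35e-07 in limma). Aqp5, a water channel on the same list, differed by 0.39 and -0.84 and passed neither test (adjusted p = 0.667 and 0.359 in limma). All 8 alveolar type II genes were higher in adult lung than in adult mammary. Over all features 12.5% passed as higher in that comparison, and 9.31% as lower in reprogrammed lung than in adult lung. The part of alveolar cell number in the Cldn18 result was not tested.

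Pan-epithelial markers moved with the claudins that were low in adult lung. Their 13 genes summed to 28.8 to 39.7 in adult lung, 222 to 278 in adult mammary, 46.3 to 214 in reprogrammed lung and 242 to 278 in reprogrammed mammary. Krt8, Krt18 and Krt19 are also on the mammary luminal list, so the sums of these lists are not independent. Of the 13 pan-epithelial genes, 9 were lower in adult lung than in adult mammary and none higher, and 6 were higher in reprogrammed lung than in adult lung. The shares over all features were 15.9% lower and 14.1% higher in these comparisons. Epcam, an adhesion protein of epithelial cells, was 14.1-fold lower in adult lung than in adult mammary (adjusted p = 0.00154 in limma), and Krt8, a keratin of simple epithelium, 8.72-fold lower (adjusted p = 0.0016 in limma). The low levels of Cldn3 and Cldn7 on reprogrammed lung replicate 1 stood beside the low epithelial sum of that array, and the part of epithelial share in these results was not tested.

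**Figure D2:**
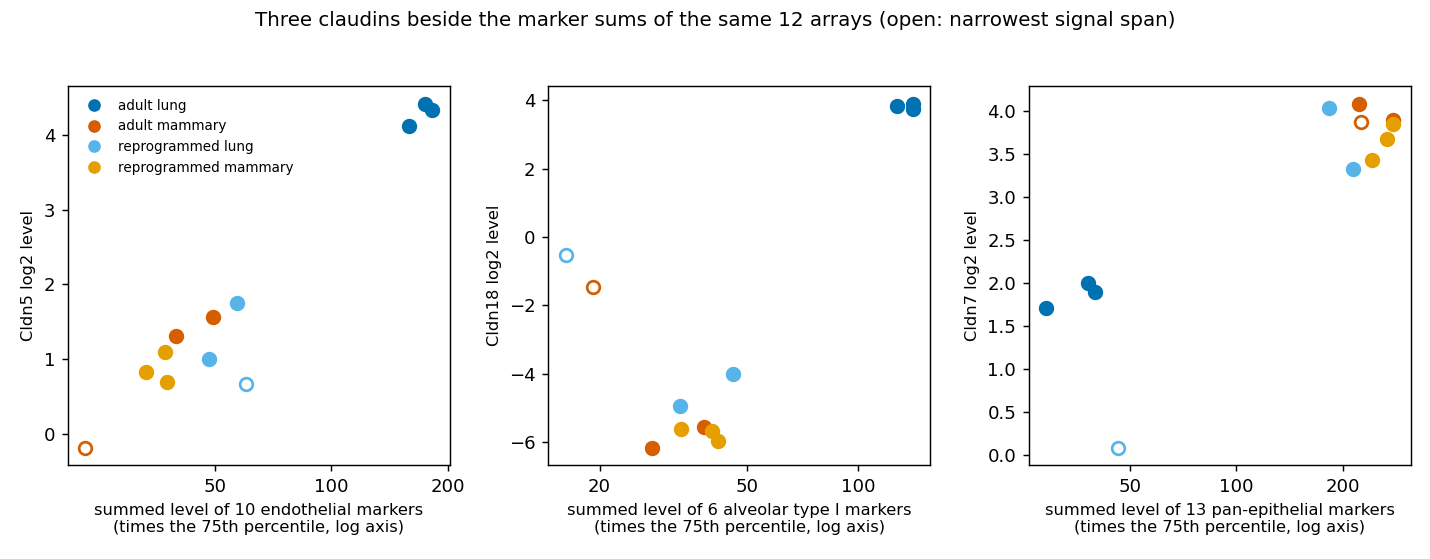
Log2 level of Cldn5, Cldn18 and Cldn7 (vertical axes) against the summed level of endothelial, alveolar type I and pan-epithelial markers on the same array (horizontal log axes, in multiples of the 75th percentile), 1 point per array and open symbols for the 2 arrays of narrow signal span. The 3 adult lung arrays lie at the upper right for Cldn5 and Cldn18 and at the left for Cldn7, where reprogrammed lung replicate 1 joins them at a marker sum of 46.3.

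The groups other than adult lung were then set against one another. No claudin passed between reprogrammed mammary and adult mammary or between reprogrammed lung and reprogrammed mammary, where 0.00408% of all features passed in each, or between reprogrammed lung and adult mammary, where 0.0122% passed. At an unadjusted p of 0.05 in limma 1, 0 and 1 of the 9 claudins passed, where 10.0%, 9.58% and 11.8% of all features did. The claudin differences ran from -1.36 to 1.13 between the mammary groups, from -1.30 to 2.59 between the reprogrammed groups and from -1.75 to 1.23 between reprogrammed lung and adult mammary. A missed threshold does not show that the levels were alike. For Cldn18 the 95% interval ran from -4.13 to 1.41 between the mammary groups, and for Cldn4 from -3.37 to -0.14 between reprogrammed lung and adult mammary. The intervals were narrower for Cldn5, from -0.96 to 0.91 between the mammary groups. Without the 2 arrays of narrow span, again none of the 9 claudins passed in these 3 comparisons.

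**Figure D3:**
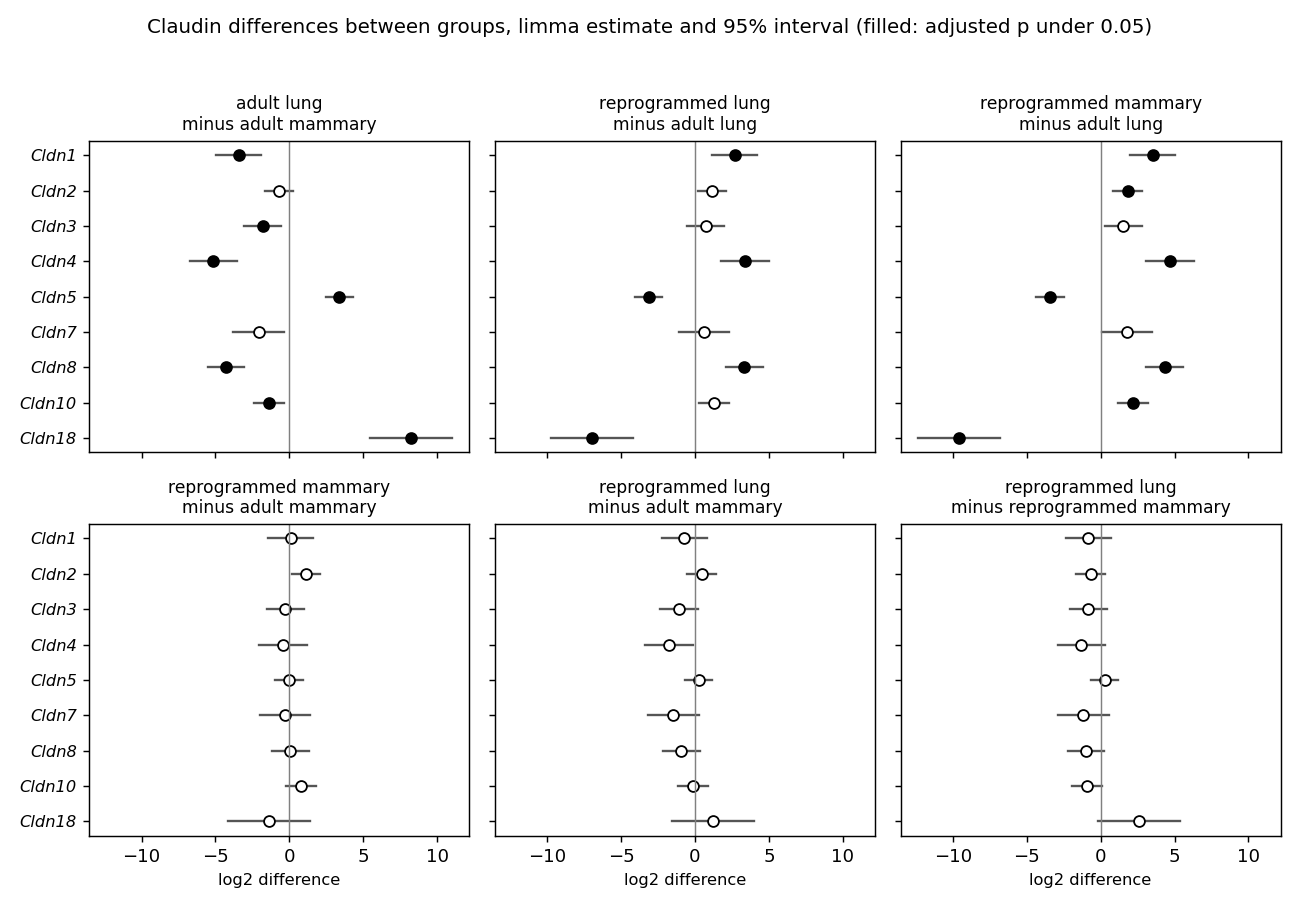
Log2 difference of each claudin (horizontal axis) with its 95% interval from limma in 6 comparisons, filled where the adjusted p was under 0.05. All filled points stand in the 3 comparisons with adult lung, and in the other 3 the claudin differences run from -1.75 to 2.59.

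Arrays were also compared within the 5 slides, where a slide held both groups with 1 array each. Between adult lung and adult mammary, slide 1 gave -5.44 for Cldn4, -5.00 for Cldn1, -4.82 for Cldn8, -1.97 for Cldn3, -1.48 for Cldn10, 3.02 for Cldn5 and 9.93 for Cldn18. Between reprogrammed lung and adult lung, Cldn4 differed by 4.15, 0.64 and 5.36 on slides 1, 3 and 5, Cldn1 by 3.44, 0.52 and 4.15, and Cldn8 by 5.17, 1.67 and 3.19. On the same slides Cldn5 differed by -2.57, -3.45 and -3.40 and Cldn18 by -8.71, -4.38 and -7.90. Slide 3 holds reprogrammed lung replicate 1, and its differences were the smallest for the 3 epithelial claudins and for Cldn18. Between reprogrammed mammary and adult lung slide 5 gave 5.04 for Cldn4, 4.03 for Cldn1, 3.20 for Cldn8, 2.07 for Cldn10, 1.78 for Cldn2, -3.58 for Cldn5 and -9.51 for Cldn18. Every claudin that passed kept its sign on every slide that held both groups.

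Reprogrammed lung replicate 1 decided several of these calls. It was below both other reprogrammed lung arrays for 7 of the 9 claudins, above both for Cldn18 and between them for Cldn2. Without it, 8 claudins passed between reprogrammed lung and adult lung, where 29.6% of all features passed, and all but Cldn2 were among them. Cldn1, Cldn4, Cldn8, Cldn3, Cldn7 and Cldn10 were then higher and Cldn5 and Cldn18 lower. Without that array 8 passed between adult lung and adult mammary, Cldn7 being the one added, where 38.4% of all features passed. All 9 passed between reprogrammed mammary and adult lung, where 35.3% of all features passed. With adult mammary replicate 4 left out as well, 9 passed between reprogrammed lung and adult lung.

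An organ difference of the change was taken: the difference of reprogrammed lung from adult lung minus that of reprogrammed mammary from adult mammary. The labels do not say that cells under the same organ name share an origin, so no change of the same cells is implied. Its value equals adult mammary minus adult lung, plus reprogrammed lung minus reprogrammed mammary, and so holds the adult gap given above. Of the 9 claudins 3 passed, 2 higher and 1 lower, where 12.8% of all features passed (7.41% higher, 5.39% lower). Cldn4 differed by 3.83 ± 1.03 (adjusted p = 0.0357 in limma) and Cldn8 by 3.28 ± 0.79 (adjusted p = 0.0231 in limma), so both differences were more positive under the lung name. Cldn5 differed by -3.12 ± 0.60 (adjusted p = 0.0087 in limma), more negative under the lung name. Cldn18 differed by -5.63 ± 1.77 (adjusted p = 0.0634 in limma) and Cldn1 by 2.59 ± 0.97 (adjusted p = 0.112 in limma), and neither passed. Only 1 claudin, Cldn5, passed without adult lung replicate 1 or without reprogrammed mammary replicate 2. The Cldn4 call held in 4 of the 12 fits that left out an array and the Cldn8 call in 9. With normexp correction neither passed, Cldn8 at 0.90 (adjusted p = 0.456 in limma) and Cldn4 at 3.18 (adjusted p = 0.0612 in limma). Cldn4 also did not pass without a filter, with slide as a fixed block or with the replicate block. Cldn8 did not pass with these blocks, with quantile normalization or in the authors' values, and Cldn5 did not with the replicate block. Without reprogrammed lung replicate 1, 8 of the 9 passed, where 21.4% of all features passed.

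The remaining claudin genes were counted next. Of 25 further claudins listed, 15 were on the array and 12 were tested. Cldn6, a claudin of embryonic epithelium, and Cldn19, a claudin of kidney tubules and Schwann cells, passed in the 3 comparisons with adult lung, and none of the other 10 did. These 2 are 16.7% of the 12, below the 28.5%, 23.4% and 26.1% of all features. Cldn6 was at least 71.1-fold lower in adult lung than in adult mammary (adjusted p = 7.11e-05 in limma), at least 9.66-fold higher in reprogrammed lung than in adult lung (adjusted p = 0.00269) and at least 88.0-fold higher in reprogrammed mammary (adjusted p = 5.11e-05). With normexp correction the 3 fitted folds of Cldn6 were 16.2, 2.74 and 19.5, and the second did not pass (adjusted p = 0.0576 in limma). In the authors' values they were 33.1, 5.00 and 38.7. On the processed signal the second fitted fold of Cldn6 was 16.5 without reprogrammed lung replicate 3. Cldn19 differed by -3.53, 3.51 and 4.02 in the same comparisons (adjusted p = 0.00372, 0.00448 and 0.0018 in limma). With normexp correction they were -1.22, 1.34 and 1.57 and none passed (adjusted p = 0.127, 0.152 and 0.0683 in limma), and with slide as a fixed block the first and the last did not pass (adjusted p = 0.0584 and 0.0556 in limma). In the authors' values they were -2.30, 2.15 and 2.67. On the processed signal the second ran from 2.61 without reprogrammed lung replicate 4 to 4.16 without its replicate 1. The other Cldn19 probe, above background on all 12 arrays, differed by -0.08, 0.23 and 0.70, so the probes of Cldn19 disagree. None of the 12 passed in the 3 comparisons without adult lung, and at an unadjusted p of 0.05 in limma 1 did between the mammary groups, 2 between the reprogrammed groups and 3 between reprogrammed lung and adult mammary. These are 8.33%, 16.7% and 25.0% of the 12, beside 10.0%, 9.58% and 11.8% of all features. The median difference of the 12 was -0.24 between adult lung and adult mammary and 0.11 between reprogrammed lung and adult lung, where the median over all features was 0.0023 and 0.10.

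Of 40 other tight junction genes listed, 36 were on the array and 35 were tested. Between adult lung and adult mammary 5 were higher and 6 lower, which is 31.4% of the 35 beside 28.5% of all features. The 3 with the widest gap were Cxadr, an adhesion receptor, at -2.55, Tjp3, a scaffold that binds claudins, at -2.32, and Marveld2, which seals corners where 3 cells meet, at -2.07 (adjusted p = 0.0147, 0.00627 and 0.00807 in limma). Between reprogrammed lung and adult lung 4 were higher and 9 lower, 37.1% of the 35 beside 23.4% of all features. The widest were the polarity genes Pard6b at -2.40 and Pard6g at -2.01, and Ildr1, a protein of the corners between cells, at 2.09 (adjusted p = 0.0106, 0.00226 and 0.000377 in limma). Between reprogrammed mammary and adult lung 4 were higher and 4 lower, 22.9% of the 35 beside 26.1% of all features, led by Ildr1 at 2.65, Tjp3 at 2.45 and Lsr, another protein of such corners, at 2.04 (adjusted p = 7.81e-05, 0.00479 and 0.00187 in limma). None of the 35 passed in the comparisons without adult lung in limma, and at an unadjusted p of 0.05 the counts were 2 between the mammary groups, 6 between the reprogrammed groups and 9 between reprogrammed lung and adult mammary. These are 5.71%, 17.1% and 25.7% of the 35, beside 10.0%, 9.58% and 11.8% of all features. Their medians in the 3 comparisons with adult lung were -0.19, -0.28 and -0.06. Several of the named calls depended on the setting. With slide as a fixed block Cxadr, Tjp3 and Marveld2 did not pass between the adult groups (adjusted p = 0.19, 0.121 and 0.0697 in limma), nor Tjp3 and Lsr between reprogrammed mammary and adult lung (adjusted p = 0.0881 and 0.077 in limma). Cxadr also did not pass without adult lung replicate 1 or adult mammary replicate 1 (adjusted p = 0.053 and 0.0509 in limma). With normexp Ildr1 was at 0.70 in reprogrammed lung (adjusted p = 0.146 in limma) and at 1.01 in reprogrammed mammary, where it passed. In the authors' values it was at 1.46 and 1.89, and passed. Pard6b did not pass with only the 2 groups in the fit (adjusted p = 0.0737 in limma), and ran from -3.15 without reprogrammed lung replicate 3 to -1.70 without its replicate 1. Esam, which is also on the endothelial list, was among those higher in adult lung.

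**Figure D4:**
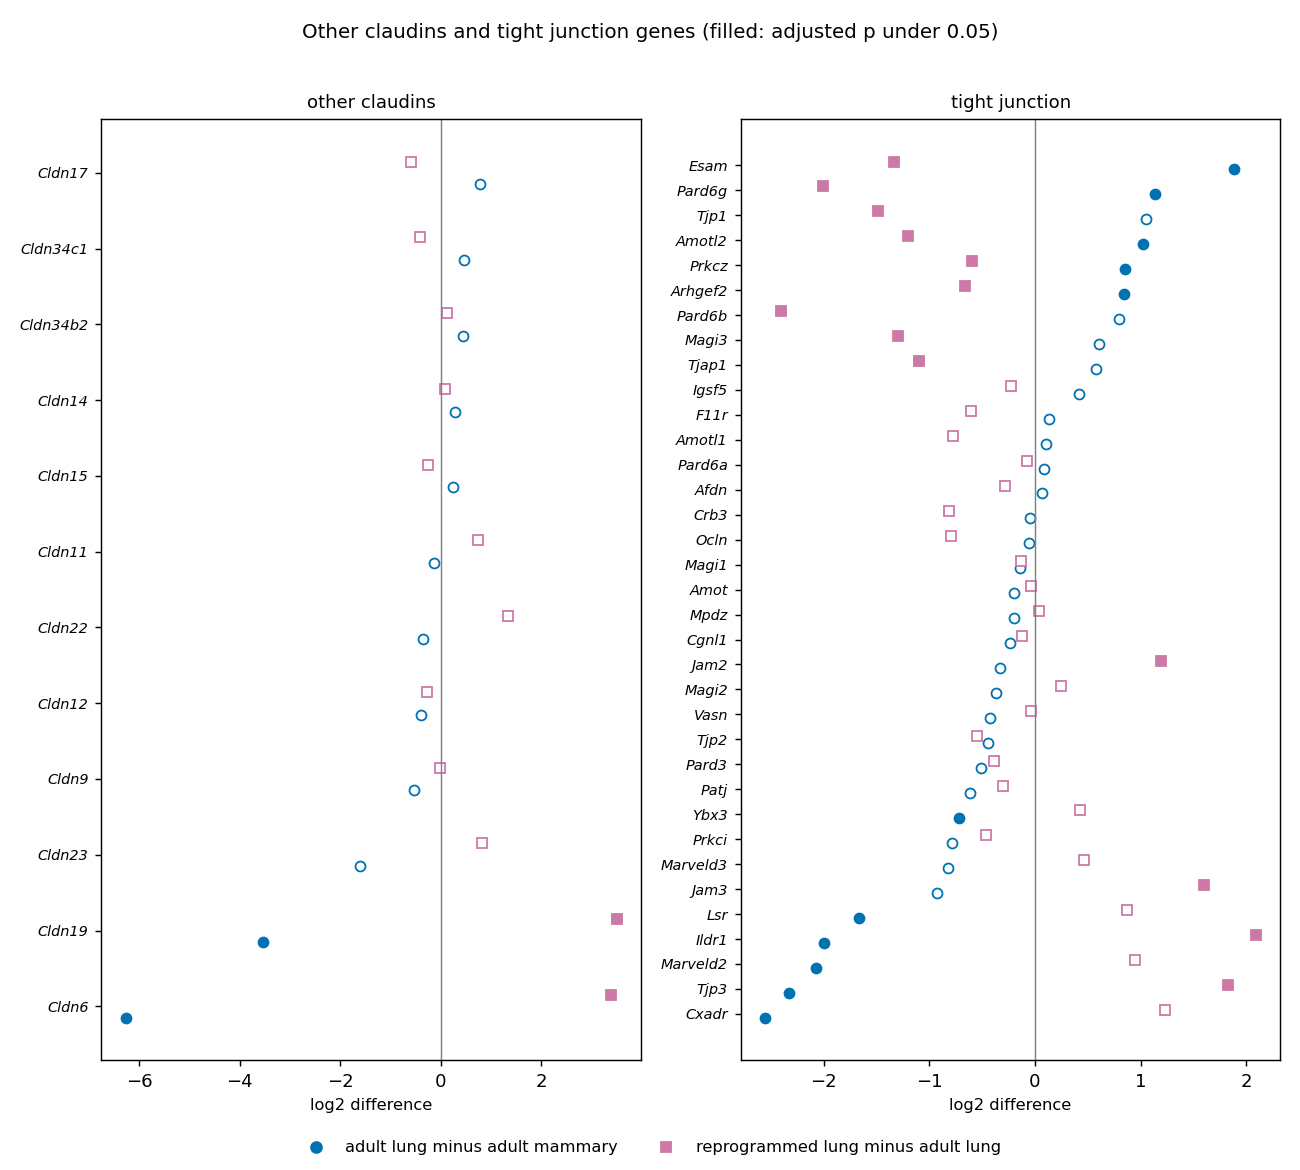
Log2 difference (horizontal axis) of 12 other claudins and 35 further tight junction genes for adult lung minus adult mammary (circles) and reprogrammed lung minus adult lung (squares), filled where the adjusted p was under 0.05. Cldn6 and Cldn19 are the filled points among the claudins, and the tight junction genes hold filled points on both sides of 0.

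The genes that ran most like each claudin were found as those with the highest Pearson correlation over the 12 arrays, among 14520 genes with a symbol. The arrays share groups, so these values describe the group pattern and carry no test. Cldn5 ran with Tie1 (0.99), Cdc42ep1 (0.99) and Cdh5 (0.98), of which Tie1, a vessel receptor, and Cdh5 are on the endothelial list. Cldn18 ran with Fgfr4 (0.99), Rgs9 (0.99) and Nostrin (0.99). Cldn8 ran with Nectin4 (0.99), Bcl2l14 (0.99) and Elf5 (0.98), where Elf5, a transcription factor of milk-making cells, is on the mammary luminal list. Cldn7 ran with Map7 (0.99), Pebp1 (0.99) and Rtkn (0.98). Cldn4 ran with Smyd3, Cstb and Adck5 (0.98 each), and Cldn1 with Vcan (0.97), Fhl2 (0.97) and Marchf7 (0.96). Cldn3 ran with Znrd2, Zfp664 and Echdc2 (0.97 each), Cldn10 with Micos13 (0.98), Mboat1 (0.97) and Tpi1 (0.96), and Cldn2 with Oxld1 (0.94), Pgp (0.92) and Homez (0.91). Cldn2 had the lowest leading correlation of the 9.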

How the data were processed

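RNA was labelled with Cy3 after linear amplification, per the labels' protocols. Per the file headers, the deposited processed signal is an intensity, background-subtracted and detrended within each array by Agilent's Feature Extraction software. Its version is 10.5.1.1 in the headers and 10.1 in the submitters' processing notes. The authors' deposited series matrix holds log2 values, used as an alternative. Genes were named through RefSeq accessions (GRCm38.p6). Here control and outlier spots were left out, spots of a probe averaged, log2 taken and each array's 75th percentile subtracted. The probe with the highest mean stood for a gene, and 24497 features well above background on all arrays of at least 1 group were tested with limma 3.58.1 on R 4.3.3, a mean per group over 12 arrays, two-sided, with Benjamini-Hochberg adjustment over all features. Of these, 301 lacked a value on some array, none of them a claudin named here. With 3 arrays a group, their number limits the precision. The files hold no mean signal, so normexp used the median signal with an offset of 50. The fit was tested on simulated data. All 9 claudins are named, other listed junction genes only as the 3 widest passing a comparison, and markers from lists. Members and lists were chosen with earlier results of these data known. Alternatives were background correction, the authors' values, quantile normalization, slide or replicate number as a block, the filter, the groups fitted, the probe rule and leaving out arrays. The other marker lists (alveolar type II, airway secretory and ciliated, mammary basal, fibroblast, adipocyte, macrophage, T and NK cell, erythroid, neutrophil and skeletal muscle) are given in the closing section. Promoters came from RefSeq windows, where the table holds no entry for Cldn8.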

Additional observations from a re-analysis of the deposited data

Results flagged for a closer look

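The organ difference of the change passed for 3 claudins, by a test of the difference itself in limma. It holds the gap between the adult groups given earlier, so it is not independent of that result. Cldn4 differed by 3.83 ± 1.03 (adjusted p = 0.0357), Cldn8 by 3.28 ± 0.79 (adjusted p = 0.0231) and Cldn5 by -3.12 ± 0.60 (adjusted p = 0.0087), each over 12 arrays. Cldn4 was higher on all 3 reprogrammed lung arrays than on any adult lung array, while its reprogrammed mammary and adult mammary arrays overlapped, and the same held for Cldn8. Cldn5 was lower on all 3 reprogrammed lung arrays than on any adult lung array, while its mammary arrays overlapped. Without reprogrammed lung replicate 1 the values were 4.75, 3.86 and -2.88. With the replicate number as a block none of the 3 passed.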

How the results depend on the processing

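Claudin counts kept within 1.5 times of those reported under most settings, and the exceptions follow. Between reprogrammed lung and adult lung 5 passed, and 3 with normexp correction, with only those groups in the fit, or with the probes above background on all 12 arrays (7 claudins left). There 8 passed without reprogrammed lung replicate 1 and 9 without both arrays of narrow span. Between reprogrammed mammary and adult lung 7 passed, and 4 with slide as a fixed block. For the organ difference of the change 3 passed, and 1 with slide as a fixed block, 0 with the replicate block and 8 without both narrow arrays. Leaving out each array in turn gave 5 to 8 between adult lung and adult mammary, 4 to 8 between reprogrammed lung and adult lung, 7 to 9 between reprogrammed mammary and adult lung and 1 to 8 for the organ difference. It gave 0 in the other 3 comparisons. The causes were not tested.

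Reversals touched only values that had not passed. Cldn1 between the mammary groups went from 0.11 to -0.0055 with the authors' values, -0.046 with its other probe and -0.23 without both narrow arrays. Cldn2 went to 0.25 between the adult groups with normexp. Its organ difference went from 0.02 to -0.64 with normexp, -0.21 with the authors' values, -0.20 with quantile normalization, -0.11 with the slide block, -0.35 with the replicate block and -0.58 without both narrow arrays. Without both narrow arrays Cldn3 and Cldn7 were at 0.0063 and 0.032 between the reprogrammed groups, Cldn5 and Cldn10 at -0.054 and 0.68 between reprogrammed lung and adult mammary, and Cldn18 at 0.11 between the mammary groups. With the slide block Cldn5 was at 0.12 between the mammary groups and Cldn10 at 0.19 between reprogrammed lung and adult mammary. Cldn8 between the mammary groups was at -0.027 with the authors' values and -0.13 with the replicate block.

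Leaving out each array in turn took uncalled values past 0. Between the mammary groups Cldn1 ran from -0.23 to 0.70, Cldn5 from -0.56 to 0.31, Cldn8 from -0.18 to 0.50 and Cldn18 from -2.25 to 0.11. Between reprogrammed lung and adult mammary Cldn1 ran from -1.36 to 0.069, Cldn5 from -0.29 to 0.58, Cldn10 from -0.47 to 0.54 and Cldn18 from -0.079 to 2.71. Between the reprogrammed groups Cldn3 ran from -1.48 to 0.0063, Cldn5 from -0.035 to 0.51 and Cldn7 from -1.94 to 0.032. Cldn7 ran from -0.16 to 1.81 between reprogrammed lung and adult lung, and the organ difference of Cldn2 from -0.55 to 0.37.

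Deviations from the group means were correlated between arrays of different groups. Of 13 same-numbered pairs 5 were above 0.1 (median 0.035, from -0.53 to 0.33). Of 41 differently numbered pairs 13 were (median 0.008, from -0.43 to 0.64). These values do not decide whether same-numbered arrays belong together. Normexp moved the median of all features by up to 0.29.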

Other observations

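The other marker lists were counted between adult lung and adult mammary in limma. Higher in adult lung were all 8 alveolar type II genes (median difference 6.17), all 4 airway secretory genes (7.07) and 3 of 4 airway ciliated genes (2.90). Lower there were all 8 mammary luminal genes (-4.37), 5 of 6 mammary basal genes (-3.59) and 2 of 4 adipocyte genes (-1.67). Of 6 fibroblast genes 1 was higher and 2 were lower (median -1.42). Of 3 macrophage genes 1 was higher (1.28), of 3 erythroid genes 2 (2.09) and of 2 neutrophil genes 1 (4.39). None of 4 B-cell genes (1.31), 5 T and NK cell genes (1.45) and 3 skeletal muscle genes (0.76) passed, and none did at an unadjusted p of 0.05. Of all features 28.5% passed in this comparison (12.5% higher, 15.9% lower), and 39.8% had an unadjusted p under 0.05 in limma.

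Between reprogrammed lung and adult lung, 7 of the 8 mammary luminal genes (median 3.52) and 3 of the 6 mammary basal genes (2.06) were higher. All 8 alveolar type II genes (-6.33) and all 4 airway secretory genes (-6.31) were lower. Of the 6 fibroblast genes 2 were higher and 1 was lower (1.07), and 2 of the 4 adipocyte genes were higher (2.00). The B-cell list had a median of -0.13 with none passing, although its summed level was highest on reprogrammed lung replicate 1. Of all features 23.4% passed in this comparison (14.1% higher, 9.31% lower).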
